A study of Mus musculus with 9 samples.

Results

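The genes described here are p53 itself (Trp53), its negative regulators and a set of its transcriptional targets other than p21. They were followed during the reprogramming of mouse embryonic fibroblasts. Other apoptosis targets were read as a separate list, though the members include genes of death receptors and cell death, such as Fas and Apaf1. The members were a list of 33 gene symbols, chosen by name with earlier results of these data known. Of these, 32 are among the 12550 genes of the deposited table. Expression of Rps27l, the remaining symbol, was not analysed here. All 32 passed the filter on low values that was set for testing.

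The transcription factor p53 is kept low in unstressed cells by Mdm2, a ubiquitin ligase, and by Mdm4, its non-catalytic partner. After DNA damage or forced growth signals it accumulates and induces genes for growth arrest, DNA repair, metabolism, cell death and its own restraint, Mdm2 among them. Reprogramming factors are known to engage p53 in fibroblasts, and cells without p53 are known to reprogram more readily. The long non-coding RNA lincRNA-p21 (Trp53cor1) is itself induced by p53, and Hnrnpk is an RNA-binding protein known as its partner and as a p53 cofactor.

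Mouse embryonic fibroblasts of strain C57Bl/6cJ were transfected with plasmids for Oct4, Sox2, Klf4 and c-Myc and grown in serum medium with LIF, a cytokine that sustains mouse embryonic stem cells. Every arm received these factors and a pretroSuper hairpin construct. The hairpin targeted luciferase, which the cells lack, in the control arm, and Hnrnpk or lincRNA-p21 in the other arms. Each of the 3 arms had 1 library on each of days 6, 9 and 12, so there were 9 libraries. Each target had 1 arm, so off-target effects of a hairpin and loss of the targeted RNA cannot be told apart. The titles describe every library as merged replicates, so the spread between replicates of an arm and day could not be measured. An arm difference is the mean over the 3 days of the difference in log2(signal + 10). Its SE and limma's p rest on 1 spread per gene, left over in all 9 libraries after arm and day were fitted. That spread pools how the differences among all 3 arms varied between days, and limma draws it towards that of genes of like signal. Day differences use the same spread. A gene was called at a limma adjusted p under 0.05, with Benjamini-Hochberg adjustment over 12541 genes. Where values of arms or days are said to lie wholly apart, the share of all genes with such a gap was not counted.

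Sequencing depth is unknown, and column totals differed by 0.0252%. Hnrnpk fell in its own arm (-0.997, SE 0.16, limma adjusted p = 0.00824), and Trp53cor1 was lower in all 3 libraries of the lincRNA-p21 arm (-1.25, SE 0.15, limma adjusted p = 0.0603). Trp53cor1 also fell in the Hnrnpk arm (-0.94, SE 0.15, limma adjusted p = 0.00752), and the hairpin arms set against each other did not pass for it (-0.31, limma adjusted p = 0.318). All 16 fibroblast markers were above 0 in every library, from Pdgfra at 115.5 to 203.5 up to Col1a2 at 62336 or more and Vim at 62353 or more. Of 10 macrophage markers 3 were in the table, Cd68 (120.5 to 780), Itgam (1574 to 3770.5) and Laptm5 (846.5 to 1349). Of 10 endothelial markers there were 4, Tek (2074 to 3141), Eng (614 to 1830), Flt1 (116 to 337.5) and Vwf (33.5 to 102.5). In bulk libraries, fewer cells of a type and less RNA per cell cannot be told apart.

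The DNA that p53 binds is built from a 10-base unit, here called the p53 decamer, made of 3 purines, C, 2 bases that are A or T, G and 3 pyrimidines. It reads the same on both strands. Most known p53 elements hold a pair of them, often in the first intron or far upstream. Promoters of 300 bases (250 before and 50 after an annotated start, of which a gene can have several) from RefSeq, build GRCm38.p6, matched 26 of the 33 listed symbols. Rps27l was among them. At least 1 decamer stood in 12 of these, again with Rps27l (46.2%), against 2582 of 27025 genes with a promoter in the same table (9.55%). No member promoter held a pair of decamers within 13 bases, which 20 of 27025 genes (0.074%) did. The sequences below show the decamer in capitals with 10 bases on each side, for p53 and for 6 other members from several roles. For Sesn1 and Polk the decamer lay only in the promoter of a start inside the gene. The promoter nearer the 5' end of each held none. A match is a description of letters in this window and shows no binding.
Trp53, chr11:69580274-69580303, strand +: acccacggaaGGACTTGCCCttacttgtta
Ccng1, chr11:40755452-40755481, strand -: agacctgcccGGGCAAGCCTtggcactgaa
Ppm1d, chr11:85311112-85311141, strand +: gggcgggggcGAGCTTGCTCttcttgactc
Sesn1, chr10:41887256-41887285, strand +: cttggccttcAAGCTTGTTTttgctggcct
Polk, chr13:96519399-96519428, strand -: catgtagcttGAACTAGCCTcaaacttatt
Ei24, chr9:36797325-36797354, strand -: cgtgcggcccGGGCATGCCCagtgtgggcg
Aen, chr7:78895927-78895956, strand +: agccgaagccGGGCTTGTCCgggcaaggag
Of the 7 members that rose with Hnrnpk reduced, 6 had a promoter in the table, and 2 of these 6 held a decamer. Those whole promoters are shown because both genes were higher in all 3 Hnrnpk libraries than in any control library.
Mdm2, chr10:117710709-117711008, strand -: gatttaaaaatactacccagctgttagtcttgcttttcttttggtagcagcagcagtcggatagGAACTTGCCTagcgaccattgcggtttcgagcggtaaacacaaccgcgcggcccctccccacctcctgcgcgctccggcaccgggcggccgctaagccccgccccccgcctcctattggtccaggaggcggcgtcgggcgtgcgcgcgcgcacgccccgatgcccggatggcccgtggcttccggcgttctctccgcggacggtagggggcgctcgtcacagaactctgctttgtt
Gadd45a, chr6:67037358-67037657, strand -: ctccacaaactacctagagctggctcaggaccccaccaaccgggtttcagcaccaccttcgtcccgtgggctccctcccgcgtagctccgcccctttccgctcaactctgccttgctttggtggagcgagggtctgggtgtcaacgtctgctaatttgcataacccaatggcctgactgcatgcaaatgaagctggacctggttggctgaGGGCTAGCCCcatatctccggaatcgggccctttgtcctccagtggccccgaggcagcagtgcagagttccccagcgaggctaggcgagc
The decamer began 186 bases before the start of Mdm2 and 40 bases before that of Gadd45a. The promoters of Plk2, Plk3, Epha2 and Gdf15 held none.

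With Hnrnpk reduced, 7 of the 32 members rose and none fell. By limma 5.58% of all genes tested were called higher and 6.94% lower in that comparison. The list was chosen with earlier results of these data known, so these shares are set side by side without a test. The 7 were Gdf15, Gadd45a, Epha2, Plk2, Plk3, Mdm2 and Trp53inp1. They span secreted factors, growth arrest, kinases, the p53 feedback loop and cell death. Of the 32, 24 lay above 0 (50.2% of all genes did), and the median difference was 0.21, against 0.00 for all genes. That median was 0.104 without control day 6. Day 6 carried the largest differences. On that day 7 members were higher than control by 1 log2 unit or more (4.54% of all genes, no test), against 1 on day 9 (2.54%) and 2 on day 12 (3.76%). Those on day 6 were Gdf15, Epha2, Gadd45a, Mdm2, Fas, Perp and Plk2. Fas and Perp were not called in the arm comparison, while the called Plk3 and Trp53inp1 stayed under 1 unit on day 6. No member was lower than control by 1 log2 unit or more on any day. Without day 9, none of the 7 called members passed, with 25 genes called in all. Without control day 9 or Hnrnpk day 9, 4 passed.

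**Figure D1:**
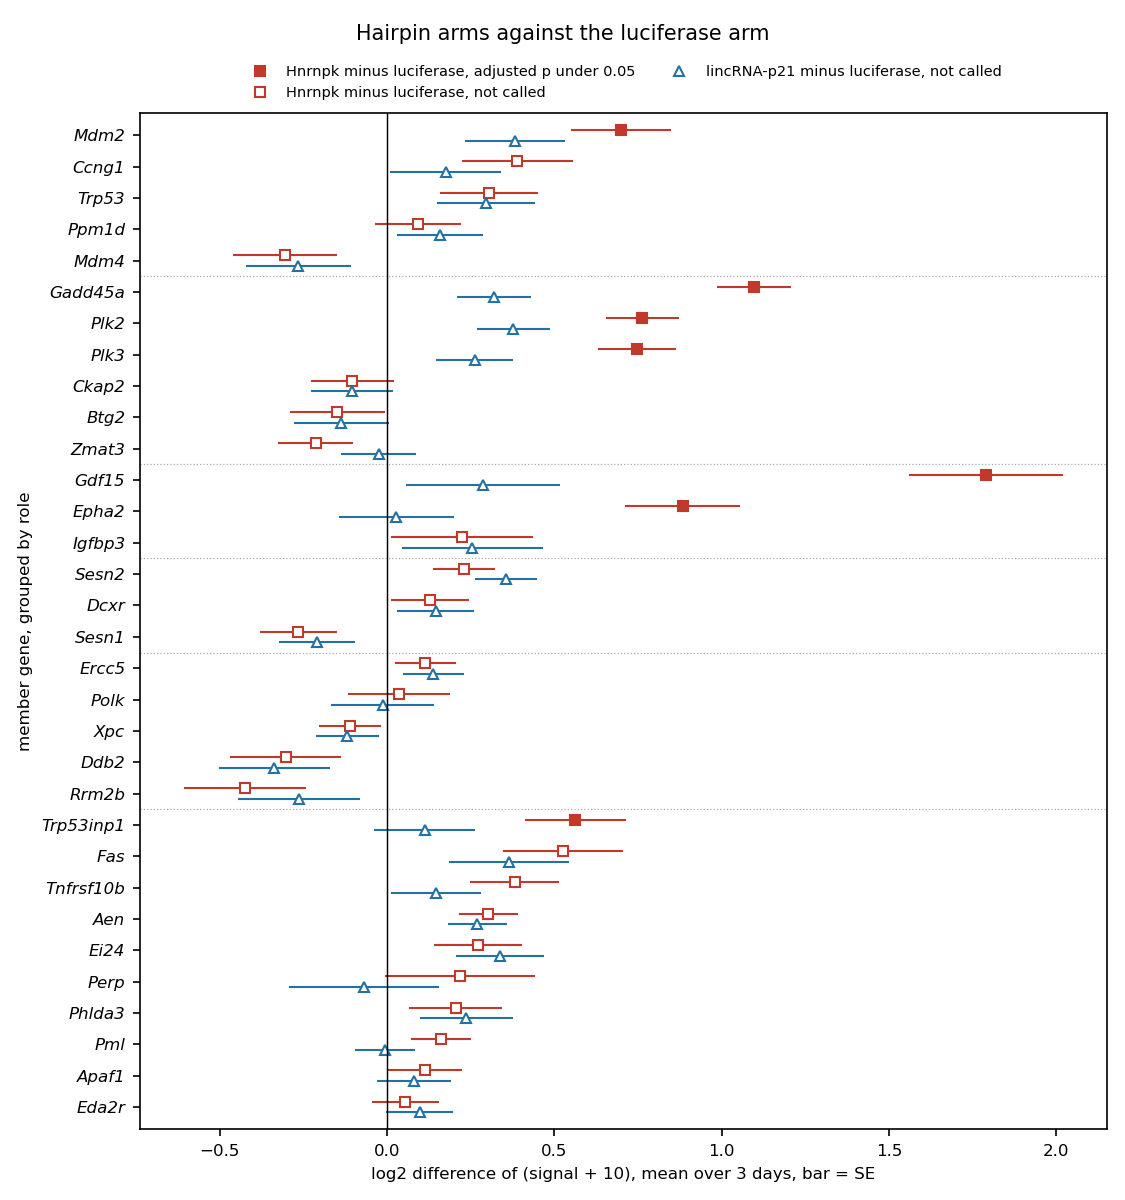
Log2 differences of the Hnrnpk and lincRNA-p21 arms from the luciferase arm for all 32 members, ordered by role (dotted lines part the roles), with bars of 1 SE. Filled symbols mark the 7 members called in the Hnrnpk arm, from Trp53inp1 at 0.56 to Gdf15 at 1.79, and no member is filled in the lincRNA-p21 arm.

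Among p53 and its negative regulators, Mdm2 rose in the Hnrnpk arm and the other 4 were not called. Values are given in the order of days 6, 9 and 12. Mdm2 read 3241, 3188 and 3224 under the luciferase hairpin, 7434, 4339.5 and 4426 under Hnrnpk knockdown and 5063, 3818.5 and 3820 under lincRNA-p21 knockdown. The control arm was level over the days, and every library of both hairpin arms lay above every control library. The rise in the Hnrnpk arm was 0.70 (SE 0.15, limma adjusted p = 0.0201), or 1.62-fold. It was 0.45 without day 6 (limma adjusted p = 0.0149), and the call was lost without control day 9, Hnrnpk day 9, the whole of day 9 or day 12, or the lincRNA-p21 arm. In the lincRNA-p21 arm Mdm2 was at 0.38 (SE 0.15, limma adjusted p = 0.318).

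Trp53 read 7131.5, 3936 and 3021 under the luciferase hairpin, 6418.5, 5368 and 4651 under Hnrnpk knockdown and 7531, 4768 and 4365 under lincRNA-p21 knockdown. Every arm was highest on day 6 and lowest on day 12, and on days 9 and 12 both hairpin arms lay above control. The arm difference was 0.31 for Hnrnpk (SE 0.15, limma adjusted p = 0.208) and 0.29 for lincRNA-p21 (SE 0.15, limma adjusted p = 0.422). Without day 6 Trp53 passed in the Hnrnpk arm at 0.53 (limma adjusted p = 0.0138), and it also passed without control day 6 (0.47) or Hnrnpk day 6 (0.48). From day 6 to day 12 it fell over the 3 arms by 0.83 (SE 0.15, limma adjusted p = 0.00208).

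Mdm4, which blocks p53 without degrading it, moved the other way over time. Mdm4 read 1860, 3133 and 2828 under the luciferase hairpin, 1204, 2682 and 2700 under Hnrnpk knockdown and 1098.5, 2725 and 3157.5 under lincRNA-p21 knockdown. Every day 6 library lay below every later one, a rise of 1.09 from day 6 to day 12 (SE 0.16, limma adjusted p = 7e-04). The arms did not pass, at -0.30 for Hnrnpk and -0.27 for lincRNA-p21.

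Ccng1, cyclin G1, a p53-induced partner of a phosphatase that acts on Mdm2, read 42076, 23246.5 and 21462 under the luciferase hairpin. It read 62336, 29107 and 25990 under Hnrnpk knockdown and 38056.5, 29107 and 27309.5 under lincRNA-p21 knockdown. Every arm was highest on day 6. Ccng1 fell by 0.90 from day 6 to day 12 (SE 0.17, limma adjusted p = 0.00244), and Ppm1d, a phosphatase that turns off p53, fell by 0.47 (SE 0.13, limma adjusted p = 0.0164). In the Hnrnpk arm Ccng1 was at 0.39 and Ppm1d at 0.09, and neither passed.

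**Figure D2:**
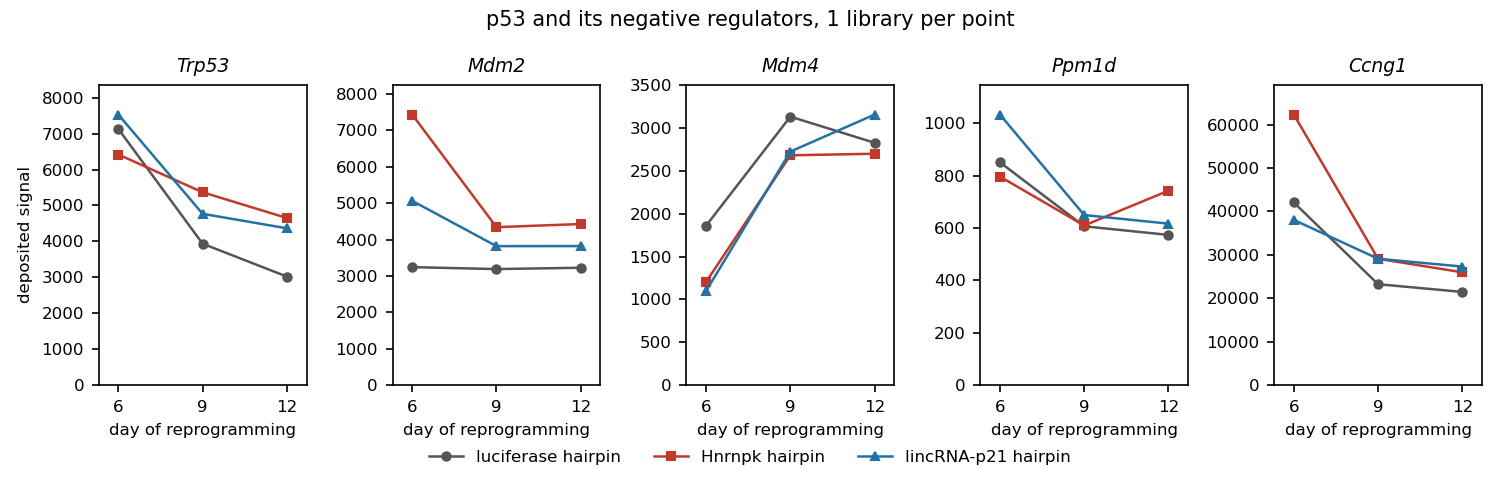
Deposited signal of Trp53, Mdm2, Mdm4, Ppm1d and Ccng1 by day of reprogramming, 1 library per point, with an axis from 0 in each panel. Mdm2 stays between 3188 and 3241 in the luciferase arm while both other arms lie above it, and Mdm4 is lowest on day 6 in every arm as Trp53 is highest.

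Of the 6 genes of growth arrest, stress kinases and RNA decay, Gadd45a, Plk2 and Plk3 rose in the Hnrnpk arm. Gadd45a, a stress sensor that binds cell cycle and repair proteins, read 215.5, 330.5 and 487 under the luciferase hairpin, 549.5, 632 and 1027 under Hnrnpk knockdown and 272.5, 404.5 and 622 under lincRNA-p21 knockdown. It climbed over the days in every arm, and the Hnrnpk arm stayed above all control libraries. The difference was 1.10 (SE 0.11, limma adjusted p = 0.00272), or 2.14-fold, and the day 6 to day 12 rise was 1.06 (SE 0.11, limma adjusted p = 0.000148). The call of the arm difference held with each of the 9 libraries left out in turn.

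The polo-like kinases Plk2 and Plk3, which act in S phase and in stress responses, were also apart. Plk2 read 1312.5, 1520 and 1887 under the luciferase hairpin, 2647.5, 2509.5 and 2792.5 under Hnrnpk knockdown and 1864, 2045 and 2172 under lincRNA-p21 knockdown (Hnrnpk against control 0.76, SE 0.11, limma adjusted p = 0.00551). Plk3 read 292.5, 215 and 254 under the luciferase hairpin, 500, 390.5 and 406 under Hnrnpk knockdown and 396.5, 273.5 and 258.5 under lincRNA-p21 knockdown (Hnrnpk against control 0.75, SE 0.12, limma adjusted p = 0.0071). Neither gene's Hnrnpk values overlapped those of control, and both calls held with each library left out.

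The other 3 genes of this role lay below 0 in the Hnrnpk arm without passing. Btg2, an antiproliferative partner of mRNA deadenylases, was at -0.15. Zmat3, a zinc finger protein that binds RNA, was at -0.21. Ckap2, a spindle protein, was at -0.10. Btg2 rose from day 6 to day 12 (0.44, SE 0.14, limma adjusted p = 0.03) and Zmat3 fell by 0.46 (SE 0.11, limma adjusted p = 0.00908).

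Gdf15, a stress cytokine of the TGF-beta family, showed the largest difference of the 32 members in the Hnrnpk arm. It read 77, 38.5 and 28.5 under the luciferase hairpin, 461, 137 and 87 under Hnrnpk knockdown and 141, 36 and 32.5 under lincRNA-p21 knockdown. Every Hnrnpk library lay above every control library, while the lincRNA-p21 arm overlapped control. The difference was 1.79 (SE 0.23, limma adjusted p = 0.00407), or 3.46-fold, and it was 1.47 without day 6. Its values were low enough that the added 10 narrows the difference. From day 6 to day 12 Gdf15 fell by 1.76 (SE 0.23, limma adjusted p = 0.000444).

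Epha2, an ephrin receptor kinase, went the opposite way in time. It read 964.5, 1585 and 2543.5 under the luciferase hairpin, 2540.5, 3025 and 3206.5 under Hnrnpk knockdown and 1129, 1675 and 2178 under lincRNA-p21 knockdown. On day 6 the Hnrnpk library was already near the level that the control arm reached on day 12. The arm difference was 0.88 (SE 0.17, limma adjusted p = 0.0143), with the call lost without control day 9 or Hnrnpk day 9, and the day 6 to day 12 rise was 0.89 (SE 0.17, limma adjusted p = 0.00313). Igfbp3, which binds insulin-like growth factors, was at 0.22 in the Hnrnpk arm and 0.25 in the lincRNA-p21 arm, and passed in neither.

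The sestrins, which restrain mTORC1, parted in time and were called in no comparison of arms. Sesn1 read 468.5, 916.5 and 823 under the luciferase hairpin, 381.5, 692.5 and 764 under Hnrnpk knockdown and 452, 659 and 763 under lincRNA-p21 knockdown. It rose by day 12 (0.84, SE 0.11, limma adjusted p = 0.000528), with every day 6 library below every later one. Sesn2, which ranged from 1436 to 3021, fell by 0.73 (SE 0.09, limma adjusted p = 0.000379). In the Hnrnpk arm they were at -0.26 and 0.23.

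Dcxr, a reductase of xylulose and dicarbonyls, read 1058, 2403.5 and 2527.5 under the luciferase hairpin, 1203, 2255 and 3104.5 under Hnrnpk knockdown and 1349, 2183.5 and 2954 under lincRNA-p21 knockdown. Every arm rose, and the change from day 6 to day 12 was 1.24 (SE 0.12, limma adjusted p = 9e-05). It was the largest rise over time among the members, with arm differences of 0.13 and 0.14 that did not pass.

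None of the 5 genes of DNA repair and nucleotide supply was called in the Hnrnpk arm. Their differences ran from -0.43 for Rrm2b, the p53-induced subunit of ribonucleotide reductase, to 0.11 for Ercc5, a nuclease of excision repair, with a median of -0.11. Xpc and Ddb2, which recognise DNA lesions, were at -0.11 and -0.30, and Polk, a translesion polymerase, at 0.04. From day 6 to day 12 Xpc (0.45, SE 0.09, limma adjusted p = 0.00434) and Ercc5 (0.31, SE 0.09, limma adjusted p = 0.0226) rose.

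Of the 10 genes of death receptors and cell death, Trp53inp1 alone passed in the Hnrnpk arm. Trp53inp1, a stress protein that promotes p53 activity, read 3247.5, 4198 and 4597.5 under the luciferase hairpin, 6206, 5216 and 6251.5 under Hnrnpk knockdown and 3276, 4610 and 5245 under lincRNA-p21 knockdown. The Hnrnpk and control values did not overlap (0.56, SE 0.15, limma adjusted p = 0.0445). The call held in 1 of 9 fits with a library left out.

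The death receptor genes Fas (0.53, limma adjusted p = 0.092) and Tnfrsf10b (0.38, limma adjusted p = 0.0994) were higher on each day in the Hnrnpk arm without passing. Fas was at 414 on day 6 in that arm and 364 in the lincRNA-p21 arm, against 193.5 in control. Aen, a nuclease of apoptosis, was at 0.30 (limma adjusted p = 0.0577), and its 3 values in each hairpin arm exceeded all 3 of control. The remaining 6 were Ei24, a protein of the endoplasmic reticulum, Phlda3, an Akt inhibitor, Perp, a desmosome protein, Pml, of nuclear bodies, Apaf1, of the apoptosome, and the receptor Eda2r. They lay between 0.05 and 0.27. From day 6 to day 12 Fas (-0.55, limma adjusted p = 0.0334), Tnfrsf10b (-0.40, limma adjusted p = 0.0372) and Ei24 (-0.40, limma adjusted p = 0.0334) fell, and Apaf1 rose (0.41, limma adjusted p = 0.0149).

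**Figure D3:**
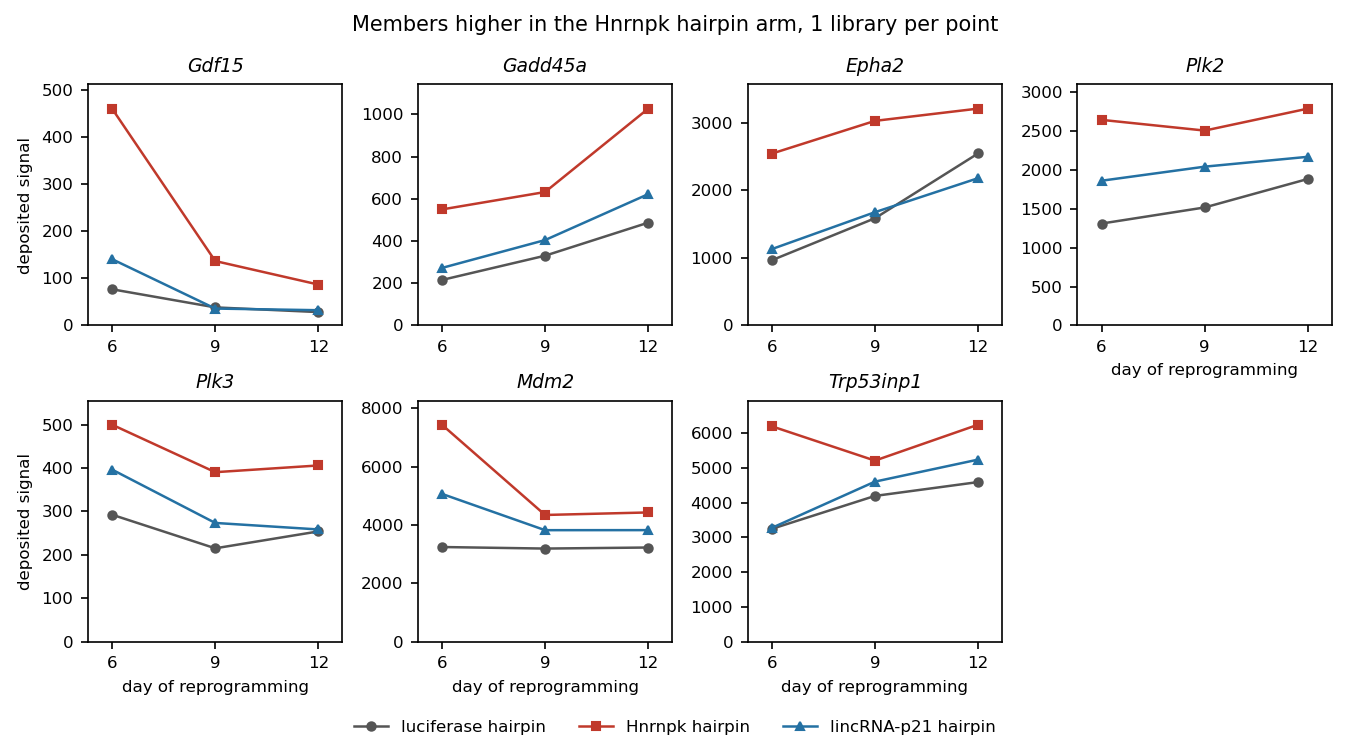
Deposited signal by day for the 7 members called in the Hnrnpk arm, 1 library per point, with an axis from 0 in each panel. The Hnrnpk line is the top line on every day in all 7 panels, and for Gdf15 the lincRNA-p21 line meets control on days 9 and 12.

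Whether the Hnrnpk effect changed between days was tested as a slope, in log2 units per 3 days. It fell for 5 of 32 members and rose for none (4.3% and 5.06% of all genes, limma). They were Perp (-0.64, SE 0.16, limma adjusted p = 0.0467), Igfbp3 (-0.59, SE 0.15, limma adjusted p = 0.0481), Epha2 (-0.53, SE 0.09, limma adjusted p = 0.0236), Rrm2b (-0.46, SE 0.11, limma adjusted p = 0.0459) and Polk (-0.39, SE 0.10, limma adjusted p = 0.0492). That model has 2 residual degrees of freedom, and Epha2 alone was called when no intensity trend was fitted. No slope was refitted without a library, day or arm.

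Perp stood at 5931.5, 10519.5 and 13100.5 under the luciferase hairpin and 12232, 9447.5 and 11132 under Hnrnpk knockdown, so the arms crossed between days 6 and 9. Igfbp3 crossed as well, at 6234, 7524 and 8762 under the luciferase hairpin and 12374, 6935 and 7640 under Hnrnpk knockdown. Rrm2b was level on day 6 and parted later, at 335.5, 410 and 573.5 under the luciferase hairpin and 330.5, 328 and 294 under Hnrnpk knockdown. Polk was at 829, 834 and 997 under the luciferase hairpin and 1139.5, 821.5 and 794 under Hnrnpk knockdown. Without day 6, Rrm2b (-0.63, limma adjusted p = 0.0355) and Btg2 (-0.37, limma adjusted p = 0.0436) were called lower in the Hnrnpk arm and Trp53 higher.

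**Figure D4:**
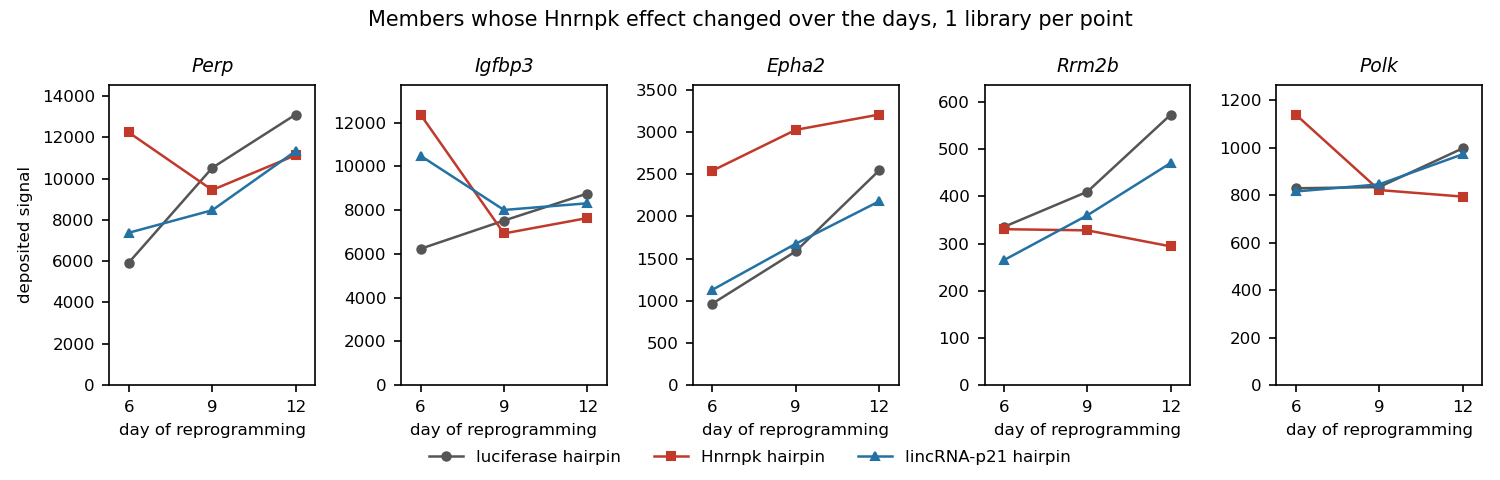
Deposited signal by day for the 5 members whose Hnrnpk effect changed over the days, 1 library per point, with an axis from 0 in each panel. The Hnrnpk line starts above control on day 6 and ends below it on day 12 for Perp, Igfbp3 and Polk, narrows for Epha2, and for Rrm2b leaves control after day 6.

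No member passed in the lincRNA-p21 arm by limma, and 1 of 12541 genes did (0.00797%). At an unadjusted p under 0.05 there were 6 of 32, Mdm2, Gadd45a, Plk2, Sesn2, Ei24 and Aen, all higher (13.8% of all genes were under it in either direction and 6.77% higher). Their differences were 0.27 to 0.38. Of the 32, 21 lay above 0 (53.8% of all genes did), and the median was 0.14, against 0.02 for all genes. Without control day 6 it was 0.0385. No slope of the lincRNA-p21 effect passed by limma for any member or gene (0%), and 5 of 32 members were at an unadjusted p under 0.05 (16.8% of all genes).

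Set against each other directly, the lincRNA-p21 arm was lower than the Hnrnpk arm in 3 members and higher in none (1.56% and 1.7% of all genes, limma). They were Gdf15 (-1.50, SE 0.23, limma adjusted p = 0.0176), Epha2 (-0.86, SE 0.17, limma adjusted p = 0.0392) and Gadd45a (-0.78, SE 0.11, limma adjusted p = 0.0141). Mdm2 was at -0.32 (SE 0.15, limma adjusted p = 0.303), Plk2 at -0.39 (SE 0.11, limma adjusted p = 0.0994) and Plk3 at -0.49 (SE 0.12, limma adjusted p = 0.0625). Leaving out Hnrnpk day 9, or any 1 library of the lincRNA-p21 arm, left none called, and without control day 6 there were 5, with Plk2 and Plk3 joining.

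Over time, 9 members rose and 10 fell from day 6 to day 12, 59.4% of the 32, beside 22.3% higher and 27% lower among all genes. The share is close to that of all genes. Most of it was in place by day 9, with 7 higher and 7 lower against day 6 (18.9% and 21% of all genes). From day 9 to day 12 none passed by limma (0.654% of all genes), and 3, Gadd45a, Dcxr and Pml, were at an unadjusted p under 0.05 (14.1% of all genes). Gadd45a passed without control day 6 or Hnrnpk day 6. The rises to day 12 were Dcxr, Mdm4, Gadd45a, Epha2, Sesn1, Xpc, Btg2, Apaf1 and Ercc5. The falls were Gdf15, Ccng1, Trp53, Sesn2, Fas, Ppm1d, Zmat3, Tnfrsf10b, Ei24 and Plk3. Without the lincRNA-p21 arm 4 rose and 4 fell, and without the Hnrnpk arm 11 rose and 6 fell. Without Hnrnpk day 6 there were 14 rises, and falls numbered 5 or 6 without Hnrnpk day 12 or without day 6 or day 12 of the lincRNA-p21 arm. Against day 6, day 9 had 3 or 4 members called in each direction without any 1 day 9 library or lincRNA-p21 day 6, and 11 lower without control day 6. With 1 library left out, the day 12 calls held in 6 of 9 fits for Ppm1d and Apaf1, 4 of 9 for Plk3, Ercc5, Fas and Ei24, 3 of 9 for Btg2, 2 of 9 for Tnfrsf10b and 9 of 9 for the other 11. Ckap2, Ddb2, Eda2r, Aen, Phlda3 and Pml passed in no comparison of arms or days and for no slope.

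**Figure D5:**
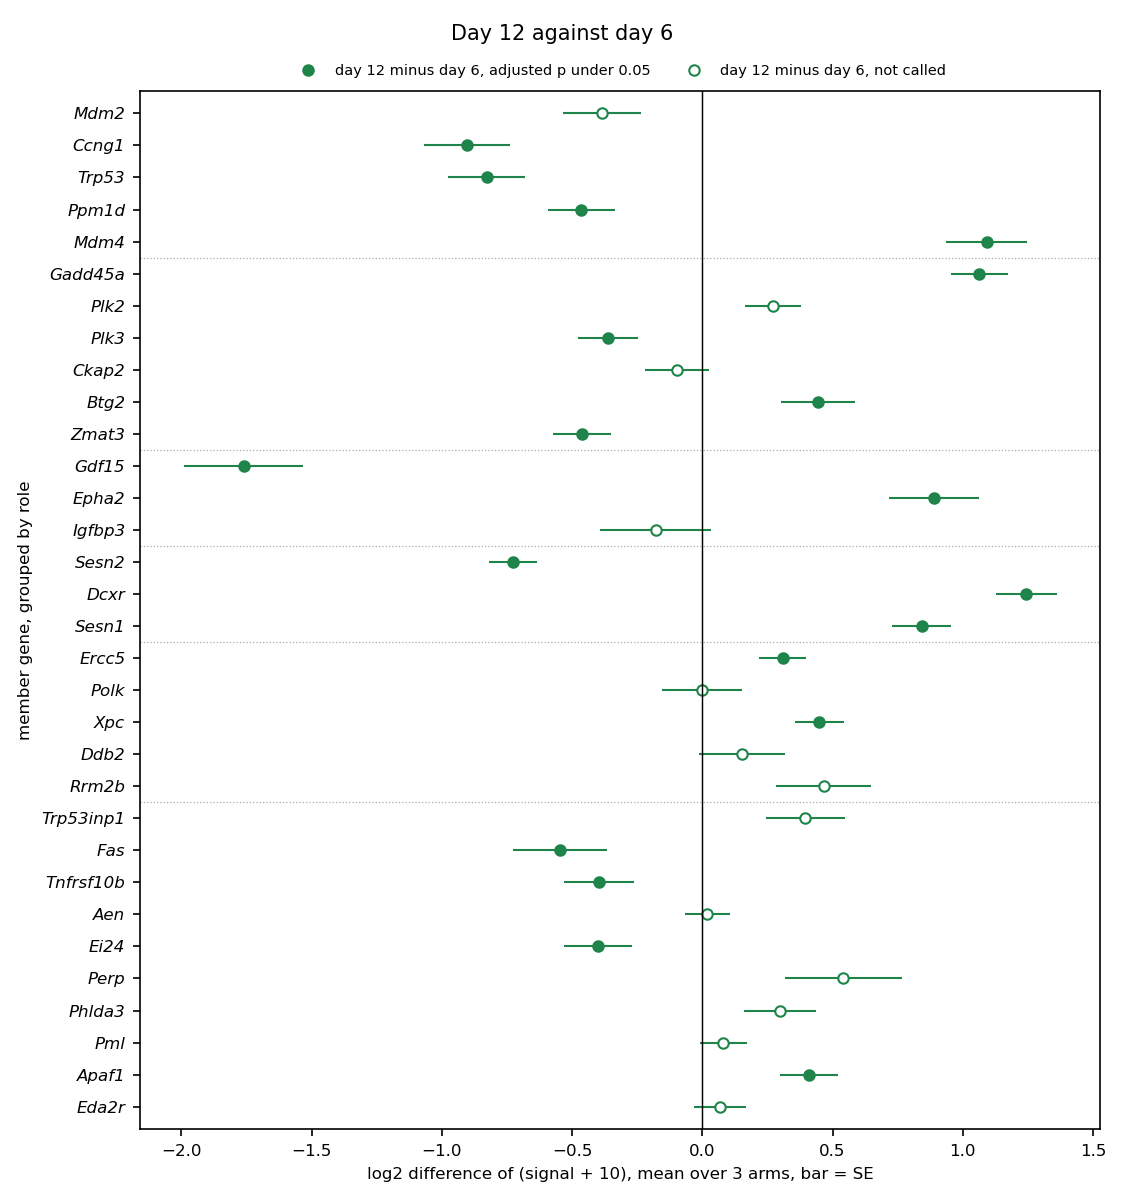
Log2 difference of day 12 from day 6, mean over the 3 arms, for all 32 members ordered by role, with bars of 1 SE. Filled symbols mark the 9 members that rose, up to Dcxr at 1.24, and the 10 that fell, down to Gdf15 at -1.76.

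Other genes of the pathway were read from lists that hold none of the members. Of 15 p53 targets of arrest and apoptosis, 3 rose and 1 fell in the Hnrnpk arm, led by Pmaip1, the death protein Noxa (1.27, limma adjusted p = 0.00368), and Sfn, an epithelial cell cycle inhibitor (1.18, limma adjusted p = 0.00143), with Steap3, a metalloreductase, at 0.69 (limma adjusted p = 0.0163). Cdkn1a, which encodes p21, was at 0.06 (limma adjusted p = 0.794), and the 1 fall was Trp53cor1. Of 30 further targets, 6 rose and 2 fell (5.58% and 6.94% of all genes, limma), with Abcb1a, a drug exporter, at 1.87 (limma adjusted p = 0.00421). Of these 30, 17 lay above 0 and 13 below, and the lowest was at -0.51. Of 27 activators and cofactors of p53, the 1 called was the p53 relative Trp73, which read 7.5, 3 and 2.5 under the luciferase hairpin, 65.5, 44 and 29 under Hnrnpk knockdown and 9, 11 and 10 under lincRNA-p21 knockdown. It passed the filter on low values only through the Hnrnpk libraries, so its call is not read as a result. None of these lists held a call in the lincRNA-p21 arm by limma. At an unadjusted p under 0.05 there were 6, 2 and 2 genes, beside 13.8% of all genes. The 6 were 5 higher and 1 lower, the latter Trp53cor1, the target of that hairpin. Of the further targets 2 were higher, and of the activators and cofactors 1 was higher and 1 lower.

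Other lists were read in the Hnrnpk arm beside the members, where limma called 5.58% of all genes higher and 6.94% lower. Of 16 genes of the integrated stress response, a programme through Atf4 that is known to share Gdf15 and Sesn2 as targets, 8 rose and none fell. Their summed signal was 31228.5 to 34645.5 in the Hnrnpk arm, 23755 to 27250 in control and 28826.5 to 29926.5 in the lincRNA-p21 arm. Of 15 epithelial markers 7 rose and 1 fell (summed signal 11961 to 60970 in the Hnrnpk arm and 10582.5 to 51811 in control), of 13 keratinocyte markers 10 rose (3062.5 to 28851.5 and 1526.5 to 17009.5), and of 13 interferon-stimulated genes 10 rose (3887.5 to 9349.5 and 2383.5 to 4003). Of 15 pluripotency markers 7 rose (2963 to 16196 and 2368 to 4757), with Lin28a and Dppa4 at 0 in 1 library each. In the lincRNA-p21 arm the sums were 6339.5 to 36667 for epithelial markers, 1603 to 14330 for keratinocyte markers and 3155 to 4781.5 for interferon-stimulated genes. For pluripotency markers they were 2475 to 11895, with 14 of 15 above 0 against control. No gene of these lists was called in that arm by limma. Dppa4 and the keratinocyte marker Ivl passed the filter on low values only through the Hnrnpk libraries. Both stay among the genes counted, so the 7 pluripotency and 10 keratinocyte markers that rose can include them. No call of either is read as a result. Of 16 fibroblast markers 1 rose and 1 fell, close to the shares of all genes. Of 3 macrophage markers none was called, and of 4 endothelial markers 2 rose. The part of these lists in the rise of the 7 members was not tested.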

How the data were processed

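Expression was measured by RNA sequencing of total RNA in 9 libraries. The authors deposited a table of normalized signal for 12550 genes. Per the submitters' processing notes RSEM 1.2.12, Bowtie 1.0.1 and build mm10 were used, without the role of each, and per the labels replicates were merged. The sources used here do not give the scaling. Some high values recur exactly between genes and libraries, as 62336 for Ccng1 in Hnrnpk day 6 and for Col1a2 in Hnrnpk day 9. The libraries may thus share 1 set of values, in which the highest can move only in coarse steps. The deposited signal moves in steps of 0.5 and every library has the same highest value, 118715, so counts of reads and the depth per library are unknown and no count test was used. 

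Genes with a mean signal of at least 20 were tested (12541, with 9 below). R 4.3.3 and limma 3.58.1 fitted log2(signal + 10) on arm and day with an intensity trend (4 residual degrees of freedom, 8.46 in total), adjusted by Benjamini-Hochberg at 0.05 over all genes tested. Slopes of an arm effect over the days used a model with 2 residual degrees of freedom. Fold changes on this scale are understated where values are low. The tests were checked on simulated data. The members and lists were chosen with earlier results of these data known. Every member is named. Values in each library are given for Trp53, Mdm2, members called between arms and the 8 with the largest change from day 6 to day 12, and, chosen after their values were seen, for the members with a changed slope. Other lists give up to 4 genes with the largest difference, and Cdkn1a, the p21 gene, was added outside that rule after its values were seen. Gene symbols came from the table, except Pidd1, Tigar, Cop1 and Kmt5a, which were matched by gene identifier. Promoters were matched by symbol. Alternatives were other pseudocounts, filters, scaling and spread estimates, fits of only the arms or days compared, and fits without 1 library, day or arm. For the slopes only the pseudocount, filter, scaling and spread estimate were varied.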

Additional observations from a re-analysis of the deposited data

Results flagged for a closer look

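The effect of the Hnrnpk hairpin differed between days, by limma's test of its slope, for Perp (-0.64), Igfbp3 (-0.59), Epha2 (-0.53), Rrm2b (-0.46) and Polk (-0.39 log2 units per 3 days). The lincRNA-p21 and Hnrnpk arms differed by limma in Gdf15 (-1.50), Epha2 (-0.86) and Gadd45a (-0.78), each lower in the lincRNA-p21 arm.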

How the results depend on the processing

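No called member changed sign in any alternative. The members' median difference moved more. With 1 library left out it was 0.104 to 0.265 for the Hnrnpk arm, 0.0385 to 0.162 for the lincRNA-p21 arm, -0.0952 to -0.00483 between the hairpin arms, -0.0302 to 0.122 from day 6 to day 9, 0.0293 to 0.103 from day 9 to day 12 and 0.0520 to 0.129 from day 6 to day 12. Without day 6 it was 0.118 for the Hnrnpk arm, 0.0558 for the lincRNA-p21 arm and -0.0323 between the hairpin arms, where it was -0.00106 without day 9 and -0.0715 without day 12. Between days 6 and 9 it was -0.0189 without the luciferase arm, a change of sign, and 0.0631 without the lincRNA-p21 arm. Between days 6 and 12 it was 0.140 without the Hnrnpk arm. Against control, the Hnrnpk arm had 4 to 7 members higher, 0 to 1 lower and 559 to 2045 genes called with 1 library left out. Fitted on the 2 arms alone it had 4 higher and 330 genes. It had 2 lower and 3001 genes without day 6, 0 higher and 25 genes without day 9, and 367 genes without day 12. Genes called in the lincRNA-p21 arm were 0 to 92 with 1 library left out, 175 without day 6 and 13 with no intensity trend, and 0 with 50 added, on the 2 arms alone, or without day 9 or day 12. No alternative called a member there.

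Between the hairpin arms, 0 to 5 members were lower and 4 to 959 genes called with 1 library left out. There were 646 genes on the 2 arms alone, 649 without day 6, and 0 members and 0 genes without day 9 or day 12. From day 6 to day 9, leaving out 1 library gave 3 to 10 members higher and 3 to 11 lower, and leaving out the lincRNA-p21 arm gave 3, 2 and 1778 genes. All-gene counts there were 3062 to 5605 with 1 library left out. From day 9 to day 12, Gadd45a was the 1 member called with 50 added or on the 2 days alone, and with 1 library left out 0 to 1 members and 1 to 421 genes were. The genes were 50 with 1 added, 833 on the 2 days alone, and 2, 11 and 0 without the luciferase, Hnrnpk and lincRNA-p21 arms. From day 6 to day 12, leaving out 1 library gave 6 to 14 higher and 5 to 12 lower. There were 5 lower on the 2 days alone, 6 lower without the Hnrnpk arm, and 4 higher, 4 lower and 3073 genes without the lincRNA-p21 arm. With no intensity trend, 1 member and 596 genes had a changed Hnrnpk slope. Depth is unknown and sets no limit that could be given here.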
